A study of Homo sapiens with 12 samples.

Results

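A set of 8 genes of the intestinal lineage was followed through 12 RNA sequencing libraries of 3 established human cancer cell lines. They are the transcription factors CDX1, CDX2, HNF4A and GATA6, and the differentiation genes VIL1, LGALS4, FABP1 and TFF3. They were chosen by symbol, with earlier results of these data known, and all 8 were found once each among the 57500 gene IDs of the count table. SW480 comes from a primary colorectal cancer and SW620 from a metastatic site of the same case; both were grown untreated in DMEM with serum. PEO4, from ovarian cancer, was grown in RPMI with serum, either in control medium or with 10 ng/mL of recombinant human TGF-β, a cytokine, for 6 days. No line carries an engineered change as far as the labels say. Each of the 4 groups has 3 biological replicates, which are cultures of 1 line, so the comparison of SW620 with SW480 is between these lines and not between metastases and primary tumours in general.

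The intestinal epithelium renews itself from crypt stem cells, whose progeny become absorptive cells with a brush border of microvilli, mucus-secreting goblet cells or hormone-secreting enteroendocrine cells. CDX1 and CDX2 are the homeobox factors that set intestinal identity, while HNF4A, a nuclear receptor, and GATA6, a zinc-finger factor, act with them on the genes of differentiated cells. Villin (VIL1) bundles actin in the microvilli, galectin 4 (LGALS4) is a lectin of the apical membrane, FABP1 carries fatty acids in enterocytes and hepatocytes, and trefoil factor 3 (TFF3) is secreted by goblet cells with mucus. In colorectal cancer these genes mark how much of the intestinal programme a tumour keeps.

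Promoter sequences are shown for the regulators the results turn on, CDX2 and HNF4A, and for LGALS4, from RefSeq's table (GRCh38.p14), which holds entries for 5 of the 8 genes. Each runs 5′ to 3′ along the gene's strand, from 250 bases before the start to 50 bases after it, and capitals mark a match to one of the motifs searched. HNF4A has 2 entries, an upstream start and a downstream one, and a count per gene cannot tell which start a read came from.
CDX2, chr13:27969266-27969565, minus strand: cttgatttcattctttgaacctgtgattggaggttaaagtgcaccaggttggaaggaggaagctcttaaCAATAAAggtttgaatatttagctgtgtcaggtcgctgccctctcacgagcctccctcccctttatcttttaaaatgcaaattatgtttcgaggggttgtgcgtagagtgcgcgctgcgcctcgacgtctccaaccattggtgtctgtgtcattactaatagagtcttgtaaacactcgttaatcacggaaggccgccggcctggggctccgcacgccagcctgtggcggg
HNF4A upstream, chr20:44355449-44355748, plus strand: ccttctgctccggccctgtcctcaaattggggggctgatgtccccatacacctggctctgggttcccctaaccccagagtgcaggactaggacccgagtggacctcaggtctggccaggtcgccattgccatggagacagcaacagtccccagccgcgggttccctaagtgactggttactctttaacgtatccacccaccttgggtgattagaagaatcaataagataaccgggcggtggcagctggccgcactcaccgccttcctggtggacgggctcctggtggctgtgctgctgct
HNF4A downstream, chr20:44400989-44401288, plus strand: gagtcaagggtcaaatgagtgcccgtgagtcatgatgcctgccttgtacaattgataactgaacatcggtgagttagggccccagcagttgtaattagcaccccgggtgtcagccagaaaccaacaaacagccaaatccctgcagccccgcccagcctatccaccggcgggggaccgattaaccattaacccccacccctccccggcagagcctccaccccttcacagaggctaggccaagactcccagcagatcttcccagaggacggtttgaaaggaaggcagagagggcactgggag
LGALS4, chr19:38812896-38813195, minus strand: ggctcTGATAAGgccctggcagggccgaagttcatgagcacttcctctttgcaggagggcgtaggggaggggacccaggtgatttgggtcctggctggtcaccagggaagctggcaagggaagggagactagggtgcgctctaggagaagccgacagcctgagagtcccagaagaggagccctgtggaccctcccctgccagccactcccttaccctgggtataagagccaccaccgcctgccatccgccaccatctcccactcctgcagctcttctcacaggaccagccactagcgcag

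Both strands were searched for TTTATNG, bound by CDX factors, with the variant TTTACNG for the same factors. For HNF4 the search used CAAAGTCCA with the shorter AAAGTCCA inside it, for GATA factors AGATAAG or else TGATAAG, and for the TATA box TATAAA. The CDX2 promoter held 1 match to TTTATNG, 181 bases before the start on the opposite strand. The LGALS4 promoter held 1 match to TGATAAG, 245 bases before the start. Neither HNF4A entry nor the GATA6 entry (chr18:22169339-22169638) held any of these motifs. The FABP1 entry (chr2:88128013-88128312) held 2 matches to TTTATNG, one of which overlaps its TATAAA. Among all 35116 promoters of this length, 9.73% held TTTATNG, 8.08% TTTACNG, 0.384% CAAAGTCCA, 1.14% AAAGTCCA, 2.68% AGATAAG, 1.73% TGATAAG and 11.5% TATAAA. These matches describe letters only.

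Library totals ran from 14531420 to 22028956 counts. Levels are given as CPM, the usual depth-scaled unit for counts, here on TMM-scaled library totals. Where a gene has no counts, up to 3 remain possible, which is 0.144 to 0.179 CPM depending on the library, for counting error only. In bulk RNA, fewer cells of a type and less RNA per cell cannot be told apart. Of the 2 lines from the colon, both had CDX2 and neither had much KRT20, a keratin of mature colonocytes. KRT20 had 5, 2 and 5 counts in SW480 and 0, 24 and 3 in SW620, where replicate 2 was the highest. PEO4 had PAX8, the factor of the Müllerian tract, at a mean CPM of 559 ± 18.2 in control and 574 ± 55.1 after TGF-β, and the SW lines had it at 43.4 ± 12.5 (SW480) and 46.6 ± 10.2 (SW620), all as SD with n = 3. SW620 replicate 3 held PEO4-like reads. For each SW620 library in turn, 10 genes of high PEO4 level that were lowest in the other SW620 libraries were pooled, so the genes differ between libraries. They stood at 0.915% of their PEO4 level in replicate 3, against 0.0137% and 0.0803% in the other SW620 libraries. At a share of 1.25%, read from 45 genes that were nearly silent in the other SW libraries, PEO4 reads would give under 1 count of any of the 8 genes in that library (0.267 of 5542 counts for VIL1).

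SW620 was set against SW480 to see how a line from a metastasis departs from its primary counterpart. HNF4A, VIL1, TFF3, GATA6 and LGALS4 were higher in SW620, CDX2 did not pass the test, and CDX1 and FABP1 were near 0 in both. These 5 of the 8 genes had an adjusted p under 0.05 (edgeR's quasi-likelihood test, Benjamini-Hochberg over 20941 genes), where 13.5% of all tested genes passed in that direction. All SW620 libraries lay above all SW480 libraries for the same 5 genes, as they did for 21.6% of all tested genes. The shares describe the set and are not a test of it, because the genes were chosen with earlier results known. Only 6 of the 8 genes had enough counts to be tested, and GATA6, LGALS4 and TFF3 passed the count filter through SW620 alone.

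CDX2 (ENSG00000165556, chromosome 13, 27962137 to 27971139, minus strand, GRCh38 in GENCODE 29) stood at 16.2, 17.9 and 21.2 CPM in SW480 replicates 1 to 3 and at 16.3, 15.9 and 23.8 CPM in SW620. The lines overlapped fully, and both replicates 3 were the highest of their line. The log2 fold change was -0.02 ± 0.20 (SE) with a 95% interval from -0.47 to 0.43 (adjusted p 0.96, edgeR). Its relative CDX1 (chromosome 5, 150166795 to 150184558) had 1, 4 and 5 counts in SW480 and 1, 6 and 0 in SW620, too few to test. A difference in CDX1 was not detectable at this depth.

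HNF4A (ENSG00000101076, chromosome 20, 44355700 to 44434596) stood at 14.7, 19.4 and 19.1 CPM in the SW480 libraries. In SW620 it stood at 188, 144 and 226 CPM, so the lowest SW620 library was far above the highest of SW480. The log2 fold change was 3.36 ± 0.22 (SE, n = 3), a 10.2-fold difference with a 95% interval on the log2 scale from 2.86 to 3.86 (adjusted p 1.04e-05, edgeR). Over the 15 alternatives run, its log2 fold change ran from 3.20 to 3.56. The antisense RNA HNF4A-AS1, which overlaps the gene on the other strand, was also higher in SW620 (log2 fold change 3.32 ± 0.65, SE), at 20 to 80 counts against 4 to 6. The labels give no strand setting for the counting, so reads of the pair cannot be told apart, although HNF4A held at least 2647 counts in every SW620 library.

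GATA6 (ENSG00000141448, chromosome 18, 22169443 to 22202528) had 5, 4 and 14 counts in the SW480 libraries and 71, 37 and 66 in SW620. It was low in both lines, and the SW620 libraries stood at 3.48, 2.02 and 3.18 CPM against 0.248, 0.224 and 0.722 CPM. The log2 fold change was 2.81 ± 0.53 (SE, n = 3; adjusted p 0.0036, edgeR). GATA6-AS1, on the other strand, had at most 4 counts in any library.

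VIL1 (ENSG00000127831, chromosome 2, 218419092 to 218453295) stood at 17.1, 35.5 and 24.1 CPM in the SW480 libraries and at 195, 172 and 267 CPM in SW620. SW480 replicate 2 was the highest of its line and still below every SW620 library. The log2 fold change was 3.00 ± 0.30 (SE, n = 3), an 8.03-fold difference (adjusted p 9.94e-05, edgeR). USP37, a coding gene that overlaps VIL1 on the opposite strand, did not pass the test (log2 fold change -0.44 ± 0.17, SE), with mean levels of 43.0 ± 6.25 CPM for SW480 and 32.4 ± 4.10 CPM for SW620 (SD, n = 3).

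TFF3 (ENSG00000160180, chromosome 21, 42311667 to 42315651) had the largest fitted change of the 8 genes. It had 6, 8 and 8 counts in the SW480 libraries and 360, 307 and 842 in SW620. SW620 replicate 3 was the highest, at 40.5 CPM against 17.7 and 16.8 CPM in the other SW620 libraries. The log2 fold change was 5.96 ± 0.45 (SE, n = 3; adjusted p 2.26e-05, edgeR), and it was 5.43 without that library (adjusted p 2.75e-06, edgeR), its lowest among the 14 alternatives run, whose adjusted p ran up to 0.000697 (limma-voom). The SW480 level of TFF3 was 1.55% of its SW620 level. Beside it, 10 genes of high SW620 level that were lowest in SW480, picked for each library in turn, stood at 0.836% to 1.07% of their SW620 level in the SW480 libraries. How much of the SW480 level of TFF3 could come from carried-over SW620 reads was not tested.

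LGALS4 (ENSG00000171747, chromosome 19, 38801671 to 38813364) had 8, 6 and 10 counts in SW480 and 20, 31 and 23 in SW620. The groups did not overlap, but the level stayed near 1 CPM in SW620 (0.981, 1.69 and 1.11 CPM). The log2 fold change was 1.55 ± 0.47 (SE, n = 3; adjusted p 0.0355, edgeR). The call was lost in 7 of 14 alternatives, among them DESeq2 (adjusted p 0.0623) and 5 fits with a single library removed (each SW480 library, SW620 replicate 1 and SW620 replicate 2), and its adjusted p ranged from 0.0131 to 0.136. The authors' deposited table gives LGALS4 a log2 fold change of 1.56 with an adjusted p of 0.0389. FABP1 (chromosome 2, 88122982 to 88128116) had no counts in SW480 and 0, 6 and 3 in SW620, and no difference was detectable at this depth.

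**Figure D1:**
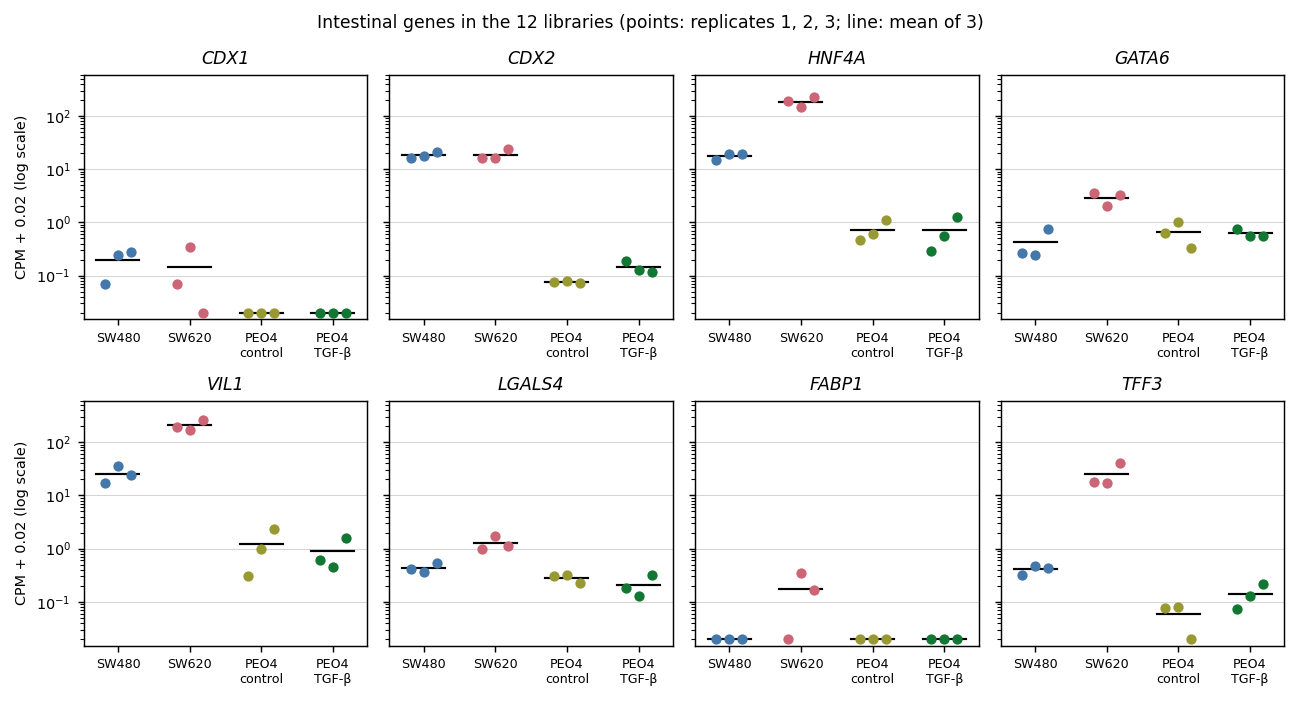
Level of each of the 8 genes in every library, as CPM plus 0.02 on a log axis; points are replicates 1, 2 and 3 from left to right within a group and the line is their mean. The SW620 points of HNF4A, GATA6, VIL1, LGALS4 and TFF3 lie above all SW480 points, the CDX2 points of both SW lines overlap, and CDX1 and FABP1 lie near the bottom in every group.

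Set per kilobase of exon length (GENCODE 29), so that genes can be compared with each other, the genes stood in another order of mean level in each line. In SW480 CDX2 had the highest mean level per length (4.48 ± 0.623 CPM per kilobase), followed by VIL1 (3.70 ± 1.34) and HNF4A (2.43 ± 0.36, SD, n = 3). VIL1 ranged from 2.47 to 5.13 CPM per kilobase there and overlapped both neighbours in that order, while HNF4A (at most 2.65) lay below CDX2 (at least 3.93). In SW620 VIL1 (30.5 ± 7.15 CPM per kilobase), HNF4A (25.5 ± 5.59) and TFF3 (21.4 ± 11.5) were highest, with overlapping libraries, and CDX2 followed at 4.53 ± 1.08 (SD, n = 3). GATA6 (0.734 ± 0.196) and LGALS4 (0.476 ± 0.143) were lower still in SW620, with overlapping libraries.

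Counts set against CDX2 in the same library need no scaling between libraries. The ratio of HNF4A to CDX2 counts was 0.908, 1.08 and 0.90 in the SW480 libraries and 11.6, 9.06 and 9.51 in SW620. That of VIL1 was 1.05, 1.98 and 1.14 in SW480 and 11.97, 10.8 and 11.2 in SW620. The TFF3 ratio was 1.08, 1.05 and 1.70 in the SW620 libraries, highest in replicate 3.

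PEO4 had low counts of all 8 transcripts. CDX1 and FABP1 had 0 counts in all 6 PEO4 libraries, and CDX2 had 1 in each control library and 3, 2 and 2 with TGF-β. TFF3 had 0 to 4 counts and LGALS4 2 to 6 over both PEO4 groups. HNF4A had 8, 10 and 21 counts in control and 5, 10 and 25 with TGF-β, and VIL1 had 5, 16 and 45 in control and 11, 8 and 32 with TGF-β, with replicate 3 the highest in both groups for both genes.

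The mean HNF4A and VIL1 levels of PEO4 control were 0.382% and 0.562% of those of SW620. For each PEO4 library in turn, 10 genes of high SW620 level that were lowest in the other PEO4 libraries were pooled, so the genes differ between libraries. They stood at 0.726% (control replicate 3) and 0.902% (TGF-β replicate 3) of their SW620 level, against 0.232% to 0.298% in the other 4 PEO4 libraries. The part of carried-over SW620 reads in the PEO4 counts of HNF4A and VIL1 was not tested. GATA6 had 6 to 17 counts in the PEO4 libraries, or 22.4% of its SW620 level in control, and LGALS4 20.8%.

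Against PEO4 control, with all 12 libraries in 1 model, 4 of the 8 genes were higher in SW480 and 6 in SW620 (edgeR's quasi-likelihood test, adjusted p under 0.05 over 23457 genes), where 28.1% and 28.7% of tested genes passed in that direction; 28.2% and 29.1% passed as lower, and 56.3% and 57.9% in either direction. In the fit of only the SW480 and PEO4 control libraries, TFF3 and LGALS4 did not pass the count filter, and 3 of the 4 genes tested were called (CDX2, HNF4A and VIL1). The SW480 call of TFF3 thus rests on a filter that also counts SW620. In the SW620 comparison TFF3 and LGALS4 passed the filter through SW620, the group where they are high, so a lower call was hardly open to them. Both comparisons use the same control libraries, and line, tissue and medium differ together. Over a floor of 3 counts per PEO4 control library, mean CDX2 was 110-fold higher in SW480 and 111-fold higher in SW620. Such a fold takes in no error of the SW mean. HNF4A had a log2 fold change of 4.61 ± 0.36 in SW480 and 8.001 ± 0.38 in SW620, and VIL1 4.39 ± 0.49 and 7.44 ± 0.52 (SE, n = 3; edgeR's adjusted p from 3.74e-10 to 2.77e-06). Over the same floor, mean TFF3 was 149-fold higher in SW620 and 2.30-fold higher in SW480. The SW480 value rests on 6 to 8 counts per library, and limma-voom did not call TFF3 there (adjusted p 0.0569). GATA6 and LGALS4 were called in SW620, with log2 fold changes of 2.16 ± 0.50 and 2.24 ± 0.50 (SE, n = 3), and not in SW480, with -0.68 ± 0.55 and 0.66 ± 0.53. The 95% interval of GATA6 in SW480 ran from -1.86 to 0.51 on the log2 scale, and the libraries overlapped.

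**Figure D2:**
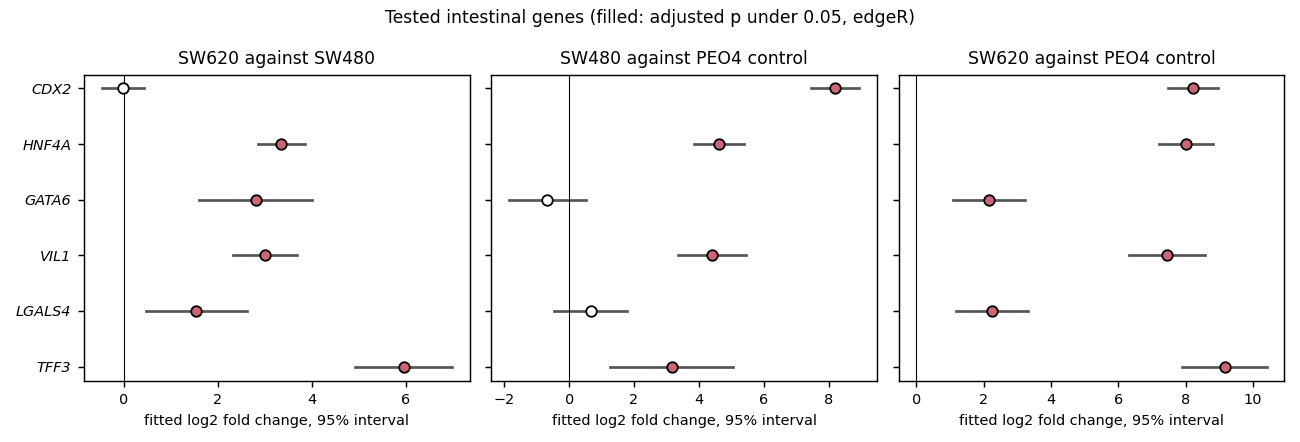
Fitted log2 fold changes of the 6 tested genes (points) with 95% intervals (lines) in 3 comparisons; filled points had an adjusted p under 0.05 with edgeR. CDX2 lies at -0.02 between the SW lines and far above 0 against PEO4, and GATA6 and LGALS4 pass against PEO4 in SW620 but not in SW480. Every PEO4 control library had at most 1 count of CDX2 and TFF3, so their points in the 2 right panels depend on the fit's prior count. The text gives their folds over a floor of 3 counts instead.

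TGF-β treatment of PEO4 for 6 days was compared with control medium. None of the 8 genes passed: 0 of the 3 tested had an adjusted p under 0.05 in edgeR's test and 0 had an unadjusted p under 0.05, and DESeq2 and limma-voom also had 0 by either measure (6 and 3 of the 8 genes in their fits), where 2.26% of tested genes passed (1.27% higher and 0.991% lower). The log2 fold changes were -0.06 ± 0.58 for HNF4A, -0.11 ± 0.49 for GATA6 and -0.45 ± 0.71 for VIL1 (SE, n = 3). Their 95% intervals ran from -1.38 to 1.25, from -1.21 to 0.98 and from -2.06 to 1.15, so a change of 2-fold either way lies within the interval for HNF4A and VIL1. The sign of each turned in at least 1 alternative.

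The calls among other intestinal genes in PEO4 are given by list, to be read beside 1.27% higher and 0.991% lower over all tested genes. No list was tested as a whole. Of the transcription factor list, 1 of 13 tested genes was higher with TGF-β, the vitamin D receptor VDR (log2 fold change 1.00 ± 0.12), and of the brush border list 1 of 12, the microvillar myosin MYO7B (1.13 ± 0.21, SE, n = 3). Of 12 tested absorptive cell genes 2 were lower, the alkaline phosphatase ALPI (-3.14 ± 0.45) and HSD11B2 (-1.10 ± 0.21). Of 10 tested crypt stem cell genes 2 were higher, EPHB2 (2.05 ± 0.20) and SOX4 (1.29 ± 0.13), of 6 tested enteroendocrine genes 1 was higher, SCG5 (2.17 ± 0.41), and of 5 tested goblet genes 0 passed in edgeR's test.

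Of other gut endoderm transcription factors (a list of 25 genes, 20 tested), 8 were higher and 6 lower in SW620, where 13.5% and 17.0% of all tested genes passed in each direction. The list median was 0.31 on the log2 scale, beside 0.03 for all tested genes. In this list and the later ones, some genes passed the count filter through a single line. A call the other way was hardly open to those genes, so the counts in each direction are not free of the filter. HNF4G, the closest relative of HNF4A, rose with a log2 fold change of 5.78 ± 0.27 (SE), from 0.446, 0.280 and 0.361 CPM to 22.1, 17.7 and 23.0 CPM. All SW620 libraries were above all SW480 libraries for this gene.

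FOXA3 (3.55 ± 0.35) and FOXA2 (3.48 ± 0.30), forkhead factors of endoderm, were also higher on the log2 scale. ISX, an intestine-specific homeobox gene, had a log2 fold change of 4.96 ± 0.54. SOX2, a factor of the foregut and of stem cells, had a log2 fold change of 5.28 ± 0.37. FOXA1, another forkhead factor, was lower in SW620 (-4.75 ± 0.56). HNF4G and ISX passed the count filter through SW620 alone and FOXA1 through SW480 alone. GATA4 had at most 2 counts and GATA5 at most 6 in any library.

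Of the brush border and microvillus list (20 symbols, 17 genes tested), 10 were higher in SW620 and 0 lower at an adjusted p of 0.05 in edgeR's test. Over all tested genes 13.5% passed as higher and 17.0% as lower, and the list was not tested as a whole. The list median was 1.198 on the log2 scale, beside 0.03 for all tested genes. Among the 10 were parts of the complex that links the tips of microvilli. ANKS4B, a scaffold of that complex, had 1, 3 and 3 counts in SW480 and 175, 179 and 212 in SW620. Its log2 fold change was 6.18 ± 0.41 (SE), with a 95% interval from 5.26 to 7.10. ANKS4B passed the count filter through SW620 alone, as CDH17 below did, so a lower call was hardly open to either. USH1C (harmonin), another scaffold, stood at 13.0, 22.04 and 20.4 CPM in SW480 and 155, 152 and 190 CPM in SW620 (log2 fold change 3.13 ± 0.23, SE). The protocadherin CDHR2 rose by 3.69 ± 0.40 and the myosin MYO7B by 2.76 ± 0.31.

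The other named genes of this list were CDH17, the liver-intestine cadherin (2.61 ± 0.55), and EPS8L3, a relative of the actin capper EPS8 (2.27 ± 0.20; SE, n = 3). CDHR5, the partner of CDHR2, was not called (mean CPM 6.78 ± 1.81 for SW480, 10.8 ± 5.89 for SW620), and neither was EZR (ezrin), which links microvillar actin to the membrane (273 ± 62.5 and 247 ± 64.9 CPM, SD, n = 3). Libraries of the lines overlapped for both.

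Of the absorptive cell list (38 genes, 15 tested), 5 were higher and 3 lower in SW620, with a median of 0.46. In this list and those that follow, such counts stand beside 13.5% higher and 17.0% lower over all tested genes, and no list was tested as a whole. A1CF, the cofactor of apolipoprotein B mRNA editing, rose from 0.149, 0.617 and 0.619 CPM to 21.8, 17.9 and 22.2 CPM (log2 fold change 5.45 ± 0.39, SE). TSPAN8 (4.30 ± 0.52), HSD11B2, which inactivates cortisol (2.26 ± 0.29), and the guanylin receptor GUCY2C (1.78 ± 0.47) were also higher. SLC15A1, the peptide transporter, was lower in SW620 (-4.20 ± 0.61). UGT1A1, a bilirubin-conjugating enzyme that shares exons with its neighbours, had a log2 fold change of -2.84 ± 0.49. A1CF and TSPAN8 passed the count filter through SW620 alone, and SLC15A1 and UGT1A1 through SW480 alone. In all, 12 of the 38 genes had at most 3 counts in every SW library.

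Of the goblet and secretory list, where TFF3 would belong (23 genes, 10 tested), 2 were higher and 2 lower, close to the shares of 13.5% and 17.0% over all tested genes, and the median was -0.10. TFF2, a trefoil gene next to TFF3, had 8, 5 and 0 counts in SW480 and 34, 18 and 60 in SW620 (log2 fold change 2.95 ± 0.82, SE, adjusted p 0.0243, edgeR). TFF2 passed the count filter through SW620 alone. FOXA3 is on this list too. REP15 (-1.93 ± 0.38) and the glycosyltransferase GALNT12 (-0.97 ± 0.28) were lower. MUC2, the main goblet cell mucin, had 11, 12 and 1 counts in SW480 and 10, 188 and 16 in SW620, where replicate 2 alone was high, and it was not called. ATOH1, the factor that commits cells to the secretory lineage, had at most 1 count in any library, and SPDEF, which drives goblet maturation, had none in SW480 and at most 4 in SW620.

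Among 18 enteroendocrine genes (9 tested), 3 were higher and 2 lower in SW620, with a median of 0.83. The granule proteins CHGB (2.55 ± 0.26) and SCG2 (4.67 ± 0.80) and the prohormone-processing carboxypeptidase CPE (4.29 ± 0.40) were higher. NEUROD1 (SW480 9.13-fold over a floor of 3 counts in SW620) and PAX6 (-2.16 ± 0.19) were lower. Of 14 crypt stem cell genes (13 tested), 8 were higher and 3 lower, with a median of 0.95; those named by rule were PROM1 (7.83 ± 0.27), SMOC2 (7.69 ± 0.27), LGR5 (6.36 ± 0.27), EPHB2 (2.79 ± 0.25) and SOX4 (1.75 ± 0.26), and CD44 was lower (-2.52 ± 0.19; SE, n = 3).

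**Figure D3:**
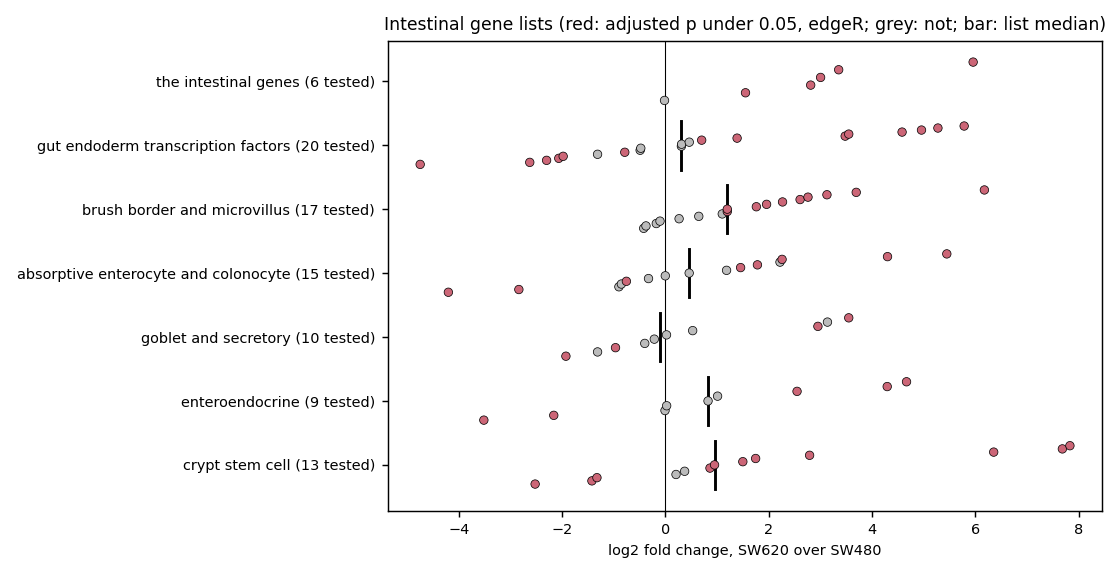
Log2 fold change of SW620 over SW480 for the tested genes of each list, 1 point a gene; red points had an adjusted p under 0.05 with edgeR, grey points did not, and black bars are list medians. The 17 brush border genes have no red point below 0, while the transcription factor list has 8 red points above and 6 below.

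Markers of other cell types gave mixed results between the lines. Of 9 gastric markers, 4 were higher in SW620 (SOX2, TFF2, MUC6 and MUC5AC, the last with overlapping libraries), and the summed level of the 9 was 3.71 to 8.86 CPM in SW480 against 42.8 to 65.5 in SW620, most of the latter from SOX2 (mean 0.899 CPM in SW480, 35.9 in SW620), while GKN1 and GKN2 had 0 counts in every library. Of 9 liver markers, APOH was higher in SW620 (at most 1 count in SW480), and the summed level was 55.5 to 102 CPM in SW480 against 62.2 to 137 in SW620, nearly all from SERPINA1; AFP had at most 1 count and TTR at most 2 in any library. Of 13 fibroblast, endothelial and blood cell markers, LUM and PECAM1 were higher and COL1A1 lower in SW620, with sums of 17.2 to 19.3 CPM in SW480 against 16.8 to 30.9 in SW620. Of 9 ovarian and Müllerian markers, WT1, FOLR1 and MSLN were higher and WFDC2 lower, with sums of 124 to 136 CPM in SW480 against 137 to 208 in SW620. The part of other cells in the differences of the intestinal genes was not tested.

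Of 27 sequence relatives of the 8 genes, 17 were tested, and 6 were higher and 5 lower in SW620, with a median of 0.17. Besides HNF4G and TFF2, the galectins LGALS2 (1.41 ± 0.37) and LGALS9 (1.39 ± 0.35), the fatty acid carrier FABP5 (1.09 ± 0.28) and the villin relative SVIL (0.59 ± 0.17) were higher. GATA2 (-2.87 ± 0.20), LGALS1 (-1.46 ± 0.31), FABP3 (-2.75 ± 0.32) and the actin-severing relatives GSN (-2.91 ± 0.22) and CAPG (-1.14 ± 0.30) were lower (log2 fold change, SE, n = 3). Several of these families have close copies, and reads shared between them are uncertain.

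Chromosomal neighbours were compared in the same fit. Of the 10 nearest tested coding genes on either side of the 5 that were higher in SW620, 1 was higher, 1 lower and 8 did not pass, where 30.5% of all tested genes passed in either direction, so the count is near that share. FITM2 (-0.18 ± 0.15) and TTPAL (-0.27 ± 0.15) flank HNF4A at 44.5 and 41.3 kilobases, and CTDSP1 (-0.16 ± 0.22) and CNOT9 (-0.01 ± 0.21) flank VIL1. MIB1 (-0.11 ± 0.19) and RBBP8 (0.17 ± 0.15) flank GATA6 at 298 and 596 kilobases. TFF2 was the one that rose, 30.7 kilobases from TFF3, whose other neighbour ABCG1 did not pass (-0.40 ± 0.35).

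CAPN12, 31.8 kilobases from LGALS4, was lower (-2.41 ± 0.23), and ECH1 on its other side did not pass (0.14 ± 0.26). Both neighbours of CDX2 were lower in SW620: PDX1, a pancreatic and duodenal homeobox factor, by -1.98 ± 0.31 and PAN3 by -0.76 ± 0.17. Beside the untested genes, PDGFRB (0.49 ± 0.35) and TCOF1 (-0.43 ± 0.18) flank CDX1 and did not pass, and of those flanking FABP1, KRCC1 did not pass (-0.27 ± 0.22) and THNSL2 was lower (-1.91 ± 0.15; log2 fold change, SE, n = 3).

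**Figure D4:**
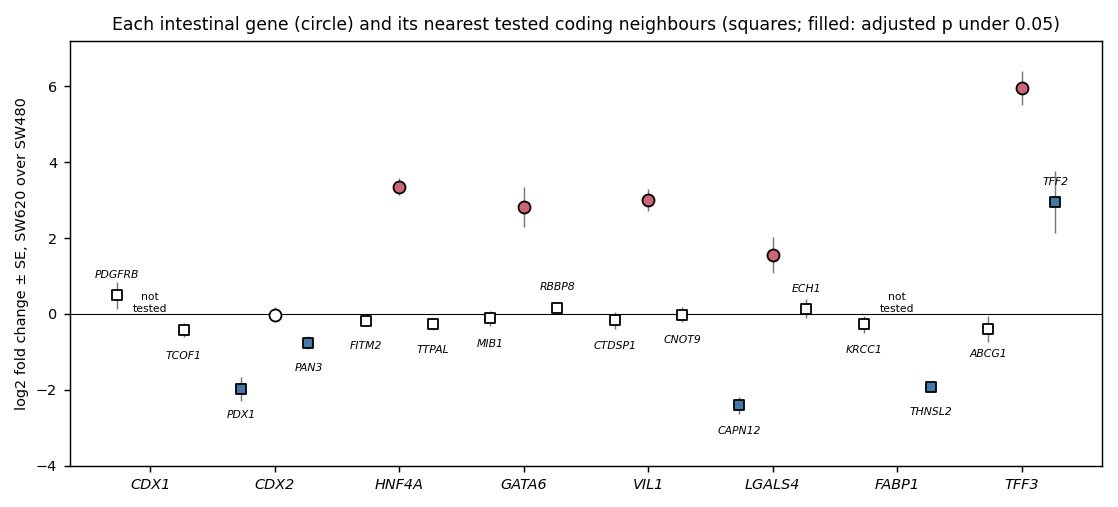
Log2 fold change of SW620 over SW480 with its standard error for each of the 8 genes (circles) and the nearest tested coding gene on its lower and higher coordinate side (squares); filled symbols passed an adjusted p of 0.05. TFF2, beside TFF3, is the only filled square above 0, and the squares beside HNF4A, GATA6 and VIL1 lie near 0.

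Over the 12 libraries, the patterns most like those of HNF4A and VIL1 shared a gene. USH1C had the highest Pearson correlation of log2 levels with both, 0.998 with HNF4A and 0.995 with VIL1, followed by CHGB for HNF4A (0.997) and NKD2, an inhibitor of Wnt signalling, for VIL1 (0.995). FZD10, a Wnt receptor (0.997), and the cytochrome CYP2B6 (0.997), which has a close copy, were nearest to TFF3. SOX13 (0.998) and PAM (0.998) were nearest to CDX2, PKIA (0.96) and ICK (0.956) to GATA6, and DGCR9 (0.979) and IQCH (0.967) to LGALS4. Libraries of a line share that line, so these values describe the order of the lines and carry no test.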

How the data were processed

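RNA was sequenced in 12 libraries from DNase-treated, ribosome-depleted RNA, per the labels' protocols. The authors' count table holds raw counts per Ensembl gene ID; per the submitters' processing notes, Trimmomatic 0.36, STAR 2.5.2b, featureCounts in Subread 1.5.2, DESeq2 and GRCh38 were used, with no role or order given. The annotation and strand use are not given in the sources used here. The deposited tables of differential expression hold a signal per library (the count over 1 size factor), a log2 fold change and p-values; they served for the comparison of LGALS4 alone.

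Tests started from the counts: edgeR 4.0.16 in R 4.3.3, filterByExpr, TMM, quasi-likelihood test, two-sided, Benjamini-Hochberg over all tested genes, threshold 0.05. Standard errors are the log2 fold change over the square root of F. The SW and PEO4 comparisons used their own 6 libraries, those across lines all 12. CPM used TMM factors of all 12 libraries. Alternatives were DESeq2 1.42.0, limma-voom (limma 3.58.1), other scalings, filters and sample sets, the replicate number as a block, and leaving out each library. The code was tested on simulated data.

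The 8 genes and 11 lists were chosen with earlier results of these data known. From each list, genes past the threshold with at least 1 CPM in the higher line were named, up to 6 by size of change, and all such sequence relatives; other named list genes (FOXA2, GATA4, GATA5, CDHR5, EZR, MUC2, ATOH1, SPDEF, KRT20, single markers and those named in PEO4 with TGF-β) were chosen after their values were seen. Some genes that the rule names are not reported here. The nearest tested coding neighbours and, per gene, the 2 most correlated genes (log2 CPM plus 0.5) were also named. Of the gene IDs, 56898 were in GENCODE 29, which gave positions and lengths. With 3 libraries a group, an exact two-sided permutation p cannot go under 0.1, so none was used. Intervals come from the fit and also take in the spread between the 3 cultures of a group, while floors cover counting error only.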

Additional observations from a re-analysis of the deposited data

How the results depend on the processing

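HNF4A, GATA6, VIL1 and TFF3 kept their direction and their side of the threshold between the SW lines in every alternative that tested them. With at least 10 counts in every library 3 of the 8 genes could be tested and 2 were called, HNF4A and VIL1; across the lines none of the 8 passed that filter. Leaving out 1 library gave 4 to 5 called genes between the SW lines, 0 to 0 between the PEO4 groups, 4 to 4 in SW480 against PEO4 control (3 of 4 tested, without TFF3 and LGALS4, when the fit held only those 6 libraries) and 6 to 6 in SW620 against it. CDX2 changed sign around 0 with total counts (0.0104), with all 12 libraries (0.0178) and over the fits that left out 1 library (-0.22 to 0.13). Between the PEO4 groups, GATA6 turned to 0.0336 under limma-voom, and over the fits that left out 1 library GATA6 ran from -0.44 to 0.36, HNF4A from -0.82 to 0.40 and VIL1 from -1.22 to 0.52.

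Counts over all genes moved more. Between the SW lines 6385 genes passed, 10667 with the replicate block, and 4254 (without SW480 replicate 1) to 7419 when 1 library was left out. Between the PEO4 groups 431 passed, 922 under DESeq2, 1457 without the filter, 2102 with the replicate block, 159 with all 12 libraries and 72 (without control replicate 2) to 1080 (without control replicate 1) when 1 library was left out. Against PEO4 control, total counts moved the calls to 8407 higher and 5311 lower in SW480 (6583 and 6614 with TMM) and to 8613 and 5621 in SW620 (6739 and 6832). Deviations of same-numbered libraries correlated at 0.0551, 0.692 and 0.595 in the SW lines and 0.281, -0.108 and 0.485 in PEO4. Differently numbered libraries correlated at -0.643 to 0.307 in the SW lines and -0.468 to 0.223 in PEO4. SW replicates 2 and 3 and PEO4 replicates 1 and 3 correlated most with their own number. Whether the numbers mark shared batches was not tested, and the main fits hold no block. With the block, 5111 of 20941 genes passed as higher in SW620 (2835 without it) and 5556 as lower (3550 without it). The block changed no call of the 8 genes. The cause of these movements was not tested. Depth limits CDX1 and FABP1 in every group and all 8 genes in PEO4.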
